A study of Mus musculus with 8 samples.

Results

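The elastic fibre genes described here are the genes of elastin (Eln), the fibrillins (Fbn1, Fbn2), the fibulins (Fbln1, Fbln2, Fbln5, Efemp1, Efemp2) and 2 lysyl oxidases (Lox, Loxl1). They were taken as all probes whose gene name in the array files is one of these 10 genes, which gave all 10 genes, out of 27962 gene names on the array, on 14 of 41174 probes, with 7 genes on 1 probe each. Expression was measured on 8 one-colour arrays of primary vascular smooth muscle cells grown from C57BL/6 mouse aorta, a cell type that contracts and also makes the matrix of the arterial media. All cells were kept in DMEM medium with fetal bovine serum. In the AngII+CsA group, 4 cultures received 1 µM angiotensin II and 200 ng/ml cyclosporin A (CsA), an inhibitor of the phosphatase calcineurin, and in the AngII group 4 cultures received 1 µM angiotensin II alone, the peptide hormone that contracts arteries. The cultures are described as independent and are numbered 1 to 4 in each group, and the time of treatment is not given in the sources used here. Both groups carried angiotensin, and cells without it were not analysed here, so the comparison is of cyclosporin in angiotensin-treated cells.

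Elastic fibres give the arterial wall its recoil. A core of cross-linked elastin lies on microfibrils built from fibrillins, fibulins help bring soluble elastin to that scaffold, and lysyl oxidases oxidise lysines so that the chains become cross-linked. Smooth muscle cells lay down most of the elastin of the arterial media, mainly during development and growth.

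Every level below is a log2 signal relative to the 75th percentile of its own array, so that 0 means a signal at that percentile. Levels of different probes cannot be ranked against each other. The lowest signal that counted as above background lay between -3.87 and -3.02 on this scale, and between 42.8% and 51.7% of spots per array were above background. Probes above background on at least 4 arrays were tested, 19532 in all, and 10 of the 14 elastic fibre probes were among them. The other 4 were the single Fbn2 probe, 1 of 2 Fbn1 probes and 2 of 3 Fbln5 probes. Of 10 smooth muscle markers, 9 to 10 were above background in AngII+CsA arrays and 8 to 10 in AngII arrays. Markers of other cell types were detected in part. Of 9 fibroblast markers, Clec3b, Dpep1, Lum, Pdgfra and Pi16 were above background on 8 of 8 arrays, and Cd34 and Ly6c1 on 0. Of 8 endothelial markers, Cldn5 and Tek were above background on 8 of 8 arrays and Pecam1, Cdh5 and Tie1 on 0. Of 7 macrophage markers, Cd14, Cd68 and Csf1r were above background on 8 arrays, Lyz2 on 2, Ptprc on 1, and Adgre1 and Itgam on 0. The AngII+CsA and AngII arrays of a replicate number were on one slide and in one scan. Their deviations from the group means had a correlation over probes of 0.702 to 0.861, beside -0.759 to 0.251 for arrays of unlike number. On the first principal component (52.8% of the variance) both replicate 1 arrays, at 73.4 with AngII+CsA and 95.1 with AngII, were far from the rest, which spanned -58 to 3.19. With 4 arrays a group, the array number sets the precision.

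The probes that carry the results are 60-mers designed against the transcripts. The first 30 bases are shown here in lower case, 5′ to 3′, for Eln, for Fbln2, Efemp1 and Loxl1, which varied over cultures, and for Fbn1 and Fbln5, which have further probes at background, because a level below is the hybridisation to that stretch of the transcript and not to the whole gene.
Eln: ataccggaagccttgacgatggatttggtg
Fbln2: ctcaactatggctacagctgacattccatt
Efemp1: tatctagtgaaacttggattctttcctgca
Loxl1: aacgtggtgagatgcaacatccactacaca
Fbn1 probe 1: tcacttatgagtatggtgcagtacatgtaa
Fbn1 probe 2: ccagagaccaaataattaaatgaaaaagca
Fbln5 probe 1: gcccagtttttacgaagaccccttaatcat
Fbln5 probe 2: agacaaaactagaacatgacctcttttagt
Fbln5 probe 3: ctcccagaaagttaaattcctagatagtca
In the mm7 build of the array files the Eln probe lies on the minus strand at chr5:133674539-133674598, the Fbln2 probe on the plus strand at chr6:91354450-91354509, the Efemp1 probe on the plus strand at chr11:28878544-28878603 and the Loxl1 probe on the minus strand at chr9:58319258-58319317. On the minus strand too, Fbn1 probes 1 and 2 lie at chr2:125041844-125041903 and chr2:125042371-125042430, and Fbln5 probes 1 to 3 at chr12:99245331-99245390, chr12:99242020-99242079 and chr12:99259844-99259903. Their place within the gene models (exon, intron or UTR) is not stated, as mm7 gene models were not used here.

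None of the 10 tested elastic fibre probes passed the comparison of AngII+CsA with AngII, by limma with Benjamini-Hochberg adjustment over all 19532 probes (threshold 0.05). With the groups alone, 0 of 10 passed and the share of all probes that passed was 0%, with a smallest adjusted p of 0.9999. At an unadjusted p under 0.05 that fit held 0 of the 10, beside 0.302% of all probes. With the replicate number as a block, which compares the arrays within each slide, 0 of 10 passed beside 0.0102% of all probes, which were 2 probes. At an unadjusted p under 0.05 the blocked fit held 1 of the 10, that of Efemp1, beside 5% of all probes. The 95% intervals of the blocked fit lay between -0.70 and 0.54 log2 over the 10 probes, or 0.617-fold to 1.45-fold. The median difference, AngII+CsA minus AngII, was 0.07 over the 10 probes and -0.02 over all probes tested, with 6 positive and 4 negative.

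Eln, the gene of elastin itself, had levels of -0.87, -0.50, 0.01 and 0.47 in AngII+CsA cultures 1 to 4, against -0.59, -0.33, 0.34 and 0.49 in AngII cultures 1 to 4. The groups overlapped almost entirely, and in both of them replicates 3 and 4 lay above replicates 1 and 2. The mean was -0.22 ± 0.58 with AngII+CsA and -0.02 ± 0.52 with AngII (SD, n = 4 each). Within the numbers the difference was -0.28, -0.16, -0.33 and -0.03, lower in 4 of 4 pairs. Over all probes, 9.47% were lower in 4 of 4 pairs, and 2 of the 10 elastic fibre probes were. The mean difference of -0.20 had a 95% interval of -0.46 to 0.06 in the blocked fit (adjusted p = 0.926 by limma). With normexp background correction, which here added an offset of 50 and was followed by quantile normalization, it was -0.06. An offset makes log2 differences of dim signals smaller.

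Fbn1 encodes fibrillin-1, the main component of microfibrils in the adult artery. Its probe 1 had 6.12, 6.12, 6.84 and 6.49 in AngII+CsA cultures, against 5.78, 6.06, 6.54 and 6.50 in AngII cultures. Replicates 3 and 4 were again the higher ones in both groups, and the groups overlapped. The difference was 0.17, with a 95% interval of -0.10 to 0.45 in the blocked fit, and 3 of 4 pairs were higher. Fbn1 probe 2, which lies 527 positions from probe 1 on chromosome 2 in mm7, was above background on 1 of 4 AngII+CsA arrays and 0 of 4 AngII arrays, so the Fbn1 level rests on probe 1. Fbn2, the gene of the fibrillin that predominates in developing tissue, was above background on 0 of 4 arrays of either group, with signals of -5.61 to -3.95 with AngII+CsA and -5.41 to -4.37 with AngII. No fold is given for it, since both groups were below background.

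**Figure D1:**
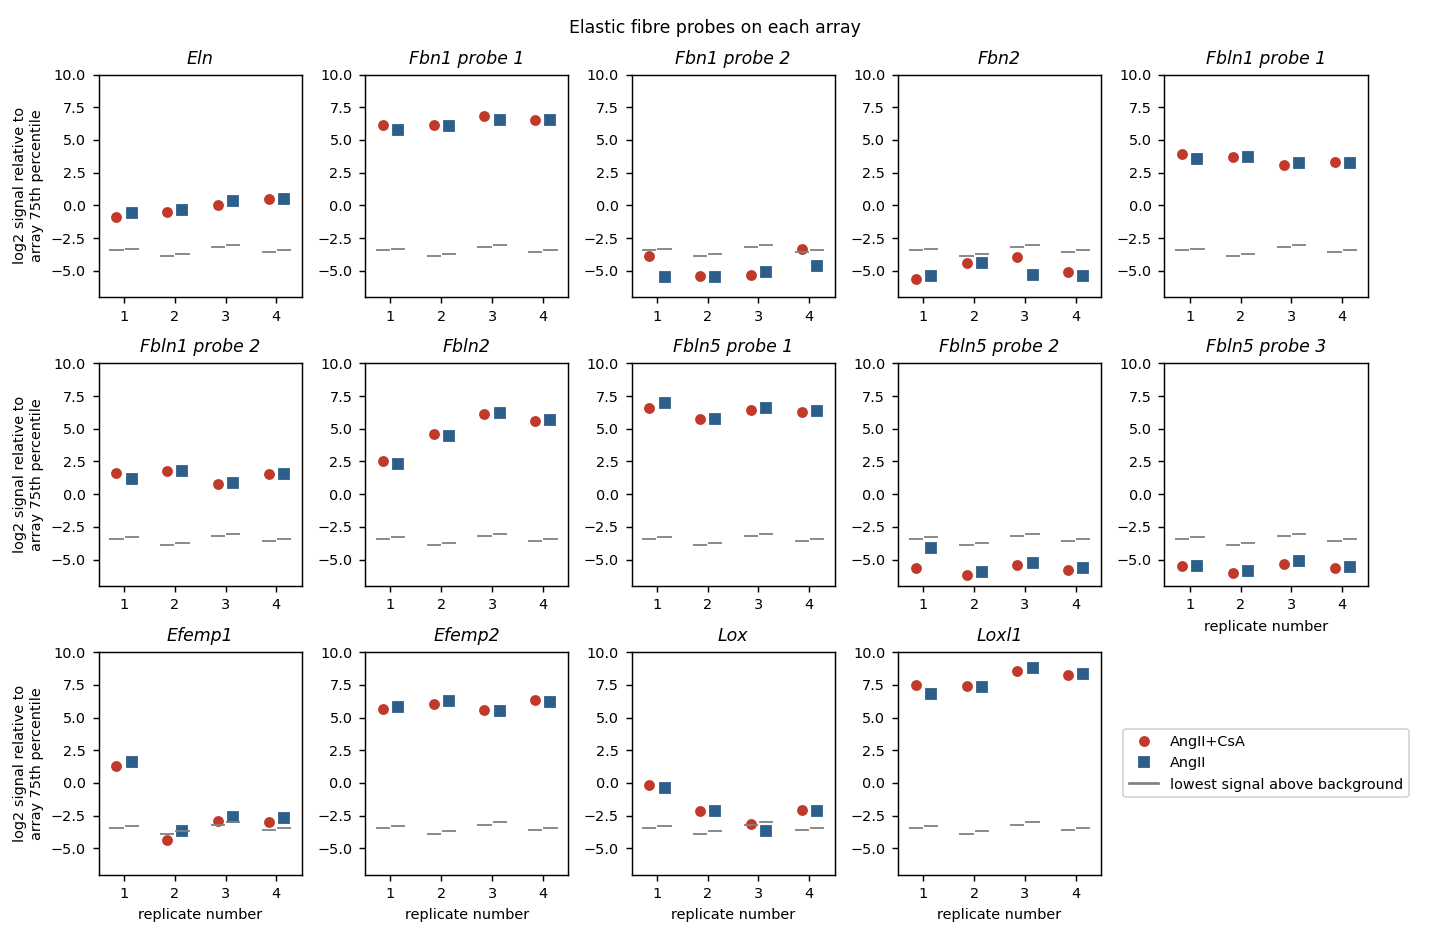
Level on the log2 scale, relative to each array's 75th percentile (vertical axis), of all 14 elastic fibre probes by replicate number (horizontal axis), with AngII+CsA as circles, AngII as squares and the lowest signal above background of each array as a grey line. The 2 treatments of a number lie close together in most panels, while Efemp1, Lox and Fbln2 differ widely between numbers.

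Among the fibulins, Fbln2, a fibulin that binds fibrillin and elastin, had the widest spread over replicates of the genes with signals above background on all 8 arrays. Its level was 2.50, 4.63, 6.10 and 5.59 in AngII+CsA cultures, against 2.27, 4.41, 6.21 and 5.66 in AngII cultures. Replicate 1 was the lowest and replicate 3 the highest under both treatments. The treatment difference of 0.07 had an interval of -0.21 to 0.35 in the blocked fit, with 2 of 4 pairs higher.

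Efemp1 encodes fibulin-3, an extracellular matrix protein of the short fibulins. Its level was 1.26, -4.34, -2.94 and -3.01 in AngII+CsA cultures, against 1.59, -3.69, -2.58 and -2.65 in AngII cultures. Replicate 1 stood far above the other 3 in both groups, and both arrays of replicate 2 were not well above background. The mean was -2.26 ± 2.43 with AngII+CsA and -1.83 ± 2.34 with AngII (SD, n = 4 each). Each pair was lower with AngII+CsA, with differences of -0.34, -0.66, -0.36 and -0.36, of which the pair of replicate 2 compares signals at background. The mean difference of -0.43 had a blocked interval of -0.70 to -0.16 with an unadjusted p of 0.00762, but the adjusted p over all probes was 0.926 by limma. Without replicate 2 the difference was -0.35 (unadjusted p = 0.0426, adjusted p = 0.981 by limma with the block). With normexp background correction it was -0.13. Of the fibroblast markers, 5 were tested and 5 had a negative difference, with a median of -0.23 and 0 past the threshold. The endothelial markers did likewise, with 4 of 4 tested negative and a median of -0.27, though Emcn and Vwf were above background on 6 and 7 of 8 arrays. Smooth muscle markers were positive for 5 and negative for 5, with a median of -0.01. Cnn1 had the largest difference among them, at 5.56 with AngII+CsA and 7.27 with AngII. Its difference of -1.71 was lower in 4 of 4 pairs (unadjusted p = 0.000351, adjusted p = 0.479 by limma with the block). Macrophage markers were positive for 1 and negative for 2, with a median of -0.06. The median over all probes was -0.02. The summed signal of the 9 fibroblast markers, in multiples of the array's 75th percentile, was 45.9 to 116 with AngII+CsA and 49.4 to 140 with AngII. The part of any of these lists in the Efemp1 values was not tested, and in RNA of a whole culture fewer cells of a type cannot be told apart from less RNA per cell.

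The fibulins that take part most directly in elastin assembly in mice are fibulin-4, encoded by Efemp2, and fibulin-5, encoded by Fbln5. Efemp2 had 5.68, 6.07, 5.55 and 6.34 in AngII+CsA cultures, against 5.84, 6.26, 5.49 and 6.21 in AngII cultures. The groups overlapped, with 2 pairs lower and 2 higher and a difference of -0.04 (blocked interval -0.31 to 0.23). Fbln5 probe 1 had 6.60, 5.75, 6.44 and 6.31 with AngII+CsA, against 6.97, 5.72, 6.58 and 6.37 with AngII. Here replicate 2 was the lowest and replicate 1 the highest in both groups, and the difference was -0.14 (blocked interval -0.41 to 0.14). The other Fbln5 probes lie 3311 and 14513 positions from probe 1 on chromosome 12 in mm7, and both were above background on 0 of 8 arrays. In the array annotation, probe 3 belongs to another transcript record than probes 1 and 2. The G and C content of probes 2 and 3 was 30% and 35%, beside 41.7% for probe 1. Among other members, Fbn1 probe 1 at 36.7% and Lox at 35% were above background on 8 and 6 arrays. Fbn1 probe 2 at 35% was above background on 1 array, and Fbn2 at 51.7% on 0. The part of G and C content in detection was not tested.

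Fbln1 encodes fibulin-1, which is found in the elastin core and in basement membranes. Its probe 1 had 3.94, 3.70, 3.09 and 3.28 in AngII+CsA cultures, against 3.56, 3.69, 3.25 and 3.21 in AngII cultures. Its probe 2, 144 positions away, had 1.60, 1.77, 0.76 and 1.57 with AngII+CsA, against 1.18, 1.74, 0.84 and 1.51 with AngII. Both probes gave the lowest replicate mean to replicate 3, and they gave similar treatment differences of 0.07 and 0.11, each higher in 3 of 4 pairs. They parted in replicate 4, which lay near replicate 3 for probe 1 and near replicate 1 for probe 2.

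Lox encodes lysyl oxidase, the main cross-linking enzyme of elastin and collagen. Its level was -0.16, -2.11, -3.12 and -2.10 in AngII+CsA cultures, against -0.42, -2.15, -3.64 and -2.12 in AngII cultures. Replicate 1 was the highest in both groups, and both arrays of replicate 3 were not well above background. All 4 pairs were higher with AngII+CsA, by 0.26, 0.04, 0.52 and 0.01, of which that of replicate 3 compares signals at background. Over all probes 4.98% were higher in 4 of 4 pairs, and Lox was the 1 of 10 elastic fibre probes to be so. The mean difference of 0.21 had a blocked interval of -0.10 to 0.52 (adjusted p = 0.929 by limma). With the block and without replicate 3 it was 0.10 (adjusted p = 0.798 by limma), and with normexp background correction it was 0.09.

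Loxl1, the lysyl oxidase that binds fibulin-5 and renews elastin in adult tissue of mice, had 7.47, 7.44, 8.58 and 8.25 in AngII+CsA cultures, against 6.79, 7.31, 8.82 and 8.32 in AngII cultures. As for Eln and Fbn1, replicates 3 and 4 lay above replicates 1 and 2 in both groups. The pair differences were 0.68, 0.14, -0.24 and -0.06, so the largest one came from replicate 1, and the mean of 0.13 had a blocked interval of -0.28 to 0.54. Of the 10 tested probes, 0 had groups that did not overlap, beside 0.395% of all probes.

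**Figure D2:**
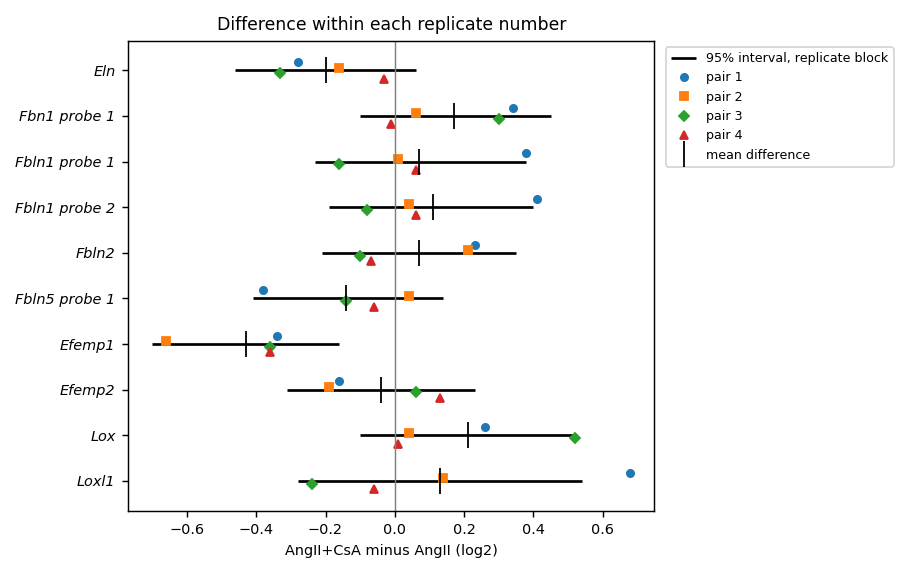
Difference AngII+CsA minus AngII in log2 (horizontal axis) for the 10 tested elastic fibre probes, with 1 symbol per replicate pair, the mean as a vertical tick and the 95% interval of the fit with the replicate block as a line. The interval of Efemp1, from -0.70 to -0.16, is the one that leaves out 0; its adjusted p was 0.926.

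Most of the variation lay between replicate numbers, each of which is a slide and a scan. Whether same-numbered cultures share anything more is not stated in the sources used here. The share of each probe's variation over the 8 arrays that lay between replicate numbers was 86.0% to 99.7% for the 10 probes, with a median of 93.9%, beside a median of 87.2% for all probes. At most 7.25% lay between treatments, with a median of 1.39% for the elastic fibre probes and 1.84% for all probes. An F test over replicate numbers, from the blocked limma fit and added after the values were seen, passed for 10 of 10 probes (adjusted p of 0.000443 for Efemp1 to 0.0472 for Fbln1 probe 1). Since 66.6% of all probes passed it too, a difference between the numbers is common to most of the array. Without replicate 3, 6 of the 10 passed, beside 10199 of all 19531 probes in this test. Fbn1 probe 1, both Fbln1 probes and Efemp2 did not. Without replicate 2, 8 passed, beside 10099 of all probes, and Fbln1 probe 1 and Fbln5 probe 1 did not. Without replicate 4, 8 passed, and Fbln1 probe 1 and Efemp2 did not, beside 8197 of all probes where 13002 had passed with every number. A difference between the cells of unlike number cannot be told apart from one between slides or scans.

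In the size of the spread, a few members stood out. As replicate 2 was not well above background for Efemp1, its range over the replicate means has only an approximate lower bound. Efemp1 was at least 36.9-fold higher in replicate 1 than in replicate 2, or at least 5.20 log2. Each dim array entered with its own signal or its lowest signal above background, whichever was higher. A signal not above background can exceed that lowest signal, so the bound is not strict. Fbln2 had a range of 3.77 log2, or 13.7-fold higher in replicate 3 than in replicate 1, which exceeded that of 99.6% of probes, some of whose ranges also include signals at background. Lox, not well above background in replicate 3, was by the same approximate bound at least 6.85-fold higher in replicate 1 than there, or at least 2.78 log2. On AngII+CsA array 3 its signal of -3.12 was above that array's lowest signal above background, -3.19. At the other end, Fbln1 probe 1, Fbn1 probe 1 and Efemp2 had ranges of 0.58, 0.75 and 0.76, below the median of 0.92 over all probes. Of the 10 probes, 6 had a range above 1 log2, beside 44.2% of all probes.

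**Figure D3:**
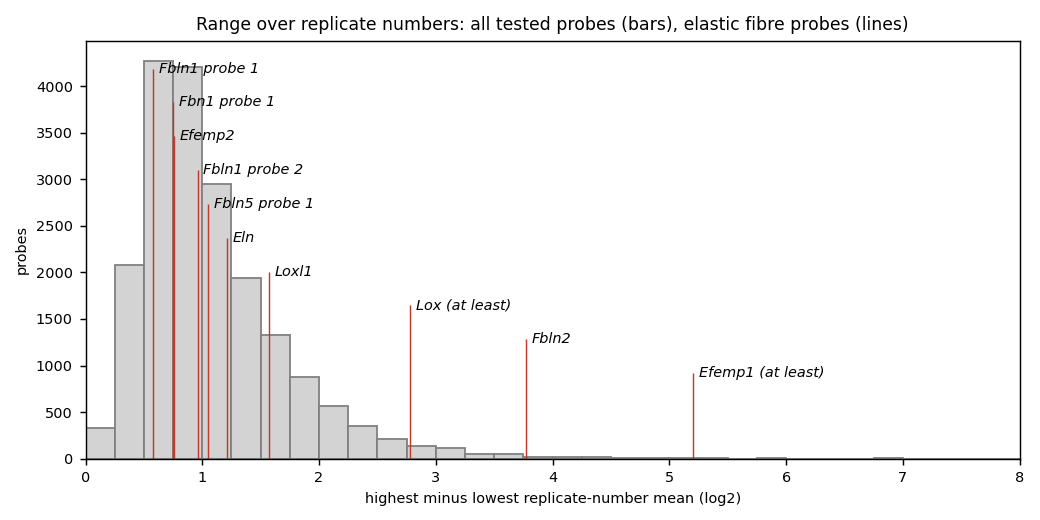
Number of tested probes (vertical axis, bars) by the range of the 4 replicate-number means in log2 (horizontal axis). The 10 elastic fibre probes are marked by lines whose height carries no value, with Efemp1 and Lox drawn at their approximate lower bounds. Efemp1 at 5.20 or more, Fbln2 at 3.77 and Lox at 2.78 or more lie in the far tail, and the other 7 lie between 0.58 and 1.57.

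The members did not vary together. Eln, Fbn1 probe 1, Fbln2 and Loxl1 had means in replicates 3 and 4 that were both above those in replicates 1 and 2, which was so for 4 of 10 elastic fibre probes and 28.9% of all probes, a pattern noticed after the values were seen. The Eln means were -0.73, -0.41, 0.18 and 0.48 in replicates 1 to 4, and those of Loxl1 were 7.13, 7.38, 8.70 and 8.29. Efemp1 and Lox ran otherwise, with means of 1.43 and -0.29 in replicate 1, their highest. Fbln5 and Fbln1 probe 1 were also highest in replicate 1, at 6.79 and 3.75.

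The upstream sequences of Fbln2 and Efemp1 are shown because these genes departed most, among the elastic fibre genes, in replicate 1 in opposite directions. They are the 250 bases before the annotated start in RefSeq, build GRCm38.p6, plus strand, at chr6:91212514-91212763 for Fbln2 and chr11:28852955-28853204 for Efemp1. Capitals mark the Sp1 motif GGGCGG or its reverse complement.
Fbln2: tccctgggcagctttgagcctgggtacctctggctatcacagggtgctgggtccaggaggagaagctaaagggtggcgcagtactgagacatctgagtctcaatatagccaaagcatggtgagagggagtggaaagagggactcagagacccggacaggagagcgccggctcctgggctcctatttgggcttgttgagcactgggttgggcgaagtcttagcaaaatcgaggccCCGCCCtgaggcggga
Efemp1: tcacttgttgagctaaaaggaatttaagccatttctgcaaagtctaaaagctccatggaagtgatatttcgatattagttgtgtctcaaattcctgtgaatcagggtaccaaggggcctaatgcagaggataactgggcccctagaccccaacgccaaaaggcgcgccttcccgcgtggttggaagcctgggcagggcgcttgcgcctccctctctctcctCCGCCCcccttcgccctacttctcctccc
Each holds 1 such match. On either strand, 32.9% of the 27025 upstream sequences of the same length in that table hold at least 1. The other motifs searched on both strands were TGACTCA for AP-1, TATAAA for the TATA box, GGAAAA for the NFAT core and the CArG box of SRF, and these letters are not in either window. Their shares over all sequences were 4.43%, 13.0%, 20.6% and 1.40%. No overlap between marked motifs occurred.

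Markers of cell type varied over the same cultures. The summed signal of the 10 smooth muscle markers, in multiples of the array's 75th percentile, was 237, 739, 1240 and 1130 in AngII+CsA cultures 1 to 4, against 312, 728, 1400 and 1400 in AngII cultures. It was lowest in replicate 1 and higher in replicates 3 and 4, as were Eln, Fbn1, Fbln2 and Loxl1. That smooth muscle sum rests mostly on the bright signals of Tagln, Acta2 and Cnn1. For single markers, the means of replicates 3 and 4 both lay above those of 1 and 2 for 7 of 10, beside 28.9% of all probes. Acta2, the smooth muscle actin, was among the 7, at 5.59, 7.19, 8.75 and 8.49 in replicates 1 to 4. Cald1, Myh11 and Mylk were not. Cald1 was highest in replicate 1, at 3.51, 2.63, 2.77 and 2.16. Myh11 was lowest in replicate 4, at 0.53, 0.64, 0.48 and -0.06, as was Mylk, at -3.48. The 9 fibroblast markers summed to 116, 53.4, 53.4 and 45.9 in AngII+CsA cultures, against 140, 66.9, 57.5 and 49.4 in AngII cultures. That sum was highest in replicate 1, as were Efemp1 and Lox, but it rests on the bright signals of Pdgfra, at 6.61, 5.49, 5.46 and 4.94 in replicates 1 to 4, and Lum, at 4.51, 3.15, 2.62 and 3.17. Clec3b and Pi16 were lowest in replicate 1, at -0.36 and -0.79, and Dpep1 was highest in replicate 4, at 2.62. The median level of the 9 fibroblast markers was lowest in replicate 1 in both groups, at -0.92 with AngII+CsA and -0.66 with AngII, so the fibroblast list did not vary as one. The summed signals of 8 endothelial markers were 0.677 to 0.885 with AngII+CsA and 0.832 to 1.11 with AngII. Those of 7 macrophage markers were 6.71 to 10.8 with AngII+CsA and 7.40 to 11.9 with AngII. The median level of the 7 was highest in replicate 1, at -1.47 with AngII+CsA and -1.34 with AngII. In the other replicates it was -4.79 to -3.81 with AngII+CsA and -5.02 to -3.54 with AngII. Above background were 4 of the 7 on AngII+CsA array 1, 5 on AngII array 1 and 3 on each other array. Cd68 and Csf1r were lowest in replicate 1, at -0.26 and -1.41. The part of any of these cells in the elastic fibre values was not tested.

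**Figure D4:**
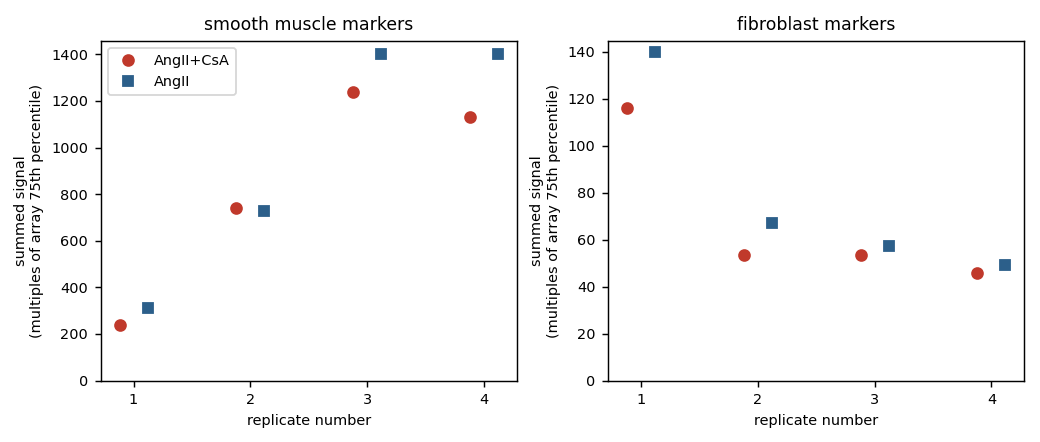
Summed signal of smooth muscle markers (left) and fibroblast markers (right), in multiples of the array's 75th percentile on a linear vertical axis, by replicate number, with AngII+CsA as circles and AngII as squares. The smooth muscle sum, carried mostly by Tagln, Acta2 and Cnn1, is lowest in replicate 1, at 237 with AngII+CsA and 312 with AngII. The fibroblast sum, carried by Pdgfra and Lum, is highest in replicate 1, at 116 with AngII+CsA and 140 with AngII. The median of the fibroblast markers is lowest there.

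Other genes of the elastic fibre were read from 2 lists. Of 32 microfibril partners and cross-linking enzymes, 30 were on the array and 22 were tested, with 0 past the threshold in either fit (0% and 0.0102% of all probes). The differences were positive for 15 and negative for 7, with a median of 0.08, beside -0.02 for all probes. The smallest p values with the block belonged to Mfap2, which encodes a small microfibril-associated glycoprotein, at -1.38 ± 0.34 with AngII+CsA and -1.18 ± 0.31 with AngII (SD, n = 4 each, adjusted p = 0.926 by limma with the block), and to Loxl4, a lysyl oxidase relative, at -1.72 ± 0.19 with AngII+CsA and -1.96 ± 0.35 with AngII (adjusted p = 0.929). Over replicates, 10 of the 22 had means in 3 and 4 above those in 1 and 2, beside 28.9% of all probes. Among them, named after their values were seen, were Mfap4, a microfibril-associated protein, at 1.77, 2.13, 3.89 and 3.55 in replicates 1 to 4, Emilin1, a glycoprotein of the elastin-microfibril interface, at 5.57, 6.08, 7.16 and 6.69, and Bmp1, the protease that activates the lysyl oxidase precursor, at 1.88, 2.04, 3.29 and 2.89. Tll1, a protease related to Bmp1, was highest in replicate 1, at 1.02, -0.80, -1.07 and -1.81.

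Of 26 elastin receptors, elastin-degrading proteases and their inhibitors, 24 were on the array and 16 were tested, again with 0 past the threshold in either fit. The differences were positive for 7 and negative for 9, with a median of -0.02. Means in replicates 3 and 4 above those in 1 and 2 were seen for 5 of the 16, beside the same 28.9%. Timp3, an inhibitor of metalloproteases that binds to the matrix, was at 7.94 ± 0.52 with AngII+CsA and 7.73 ± 0.47 with AngII (SD, n = 4 each, adjusted p = 0.926 by limma with the block). Itgb1, the common beta chain of many matrix receptors, differed by 0.16, higher in 4 of 4 pairs (adjusted p = 0.929). Ctsl, which encodes the lysosomal protease cathepsin L and was named after its values were seen, varied most over replicate numbers in this list, with means of 2.73, -0.48, -1.31 and -0.74, highest in replicate 1 as were Efemp1 and Lox.

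**Figure D5:**
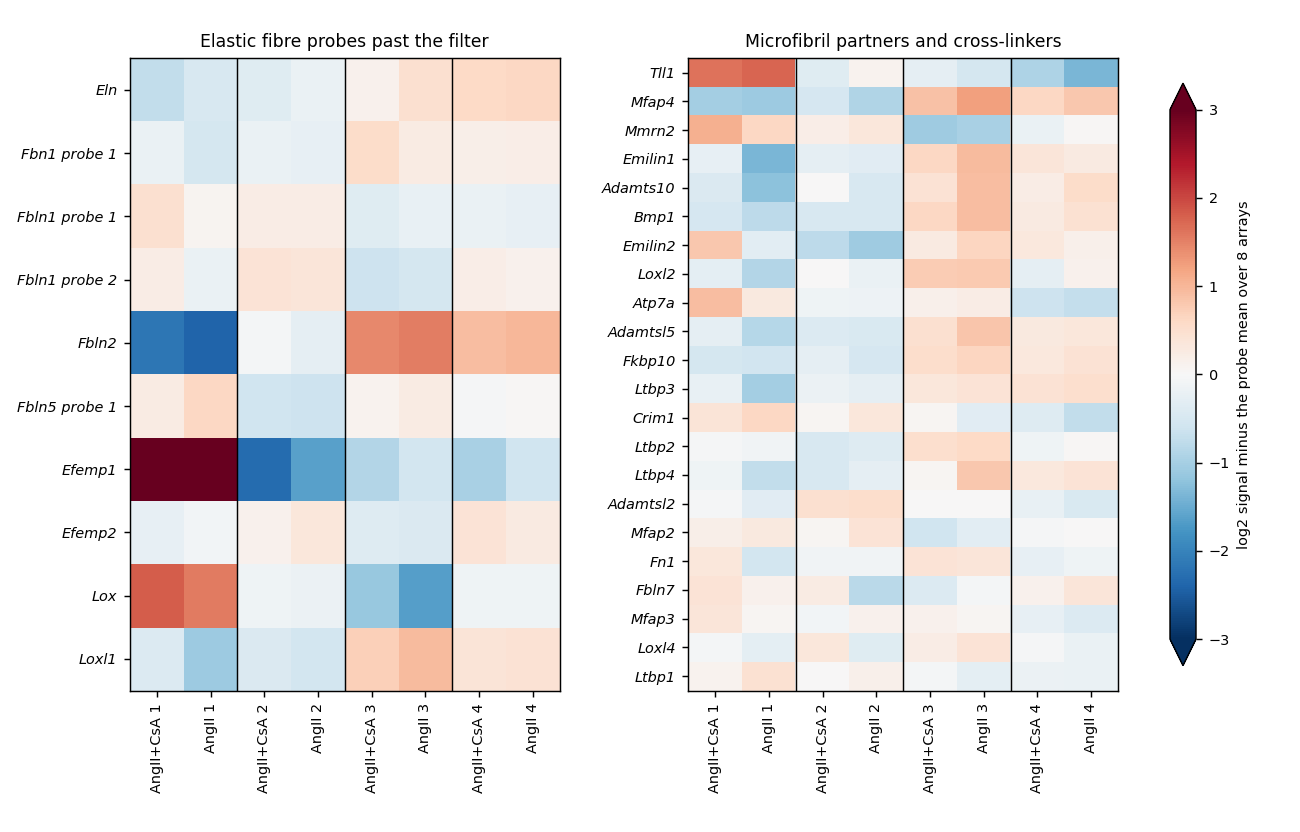
Log2 signal minus each probe's mean over the 8 arrays (colour, saturated beyond 3) for the 10 tested elastic fibre probes (left) and the 22 tested microfibril partners and cross-linkers, ordered by range over replicate numbers (right), with columns in pairs by replicate number and AngII+CsA left of AngII. Columns of a pair look alike; Efemp1 and Lox stand out as high and Fbln2 as low in replicate 1.

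The genes whose profile over the 8 arrays was most like that of Eln were H1f5, Denn2b, Olfr1497, Mmel1 and Atp6v1e2, with root mean square differences of 0.09, 0.09, 0.10, 0.11 and 0.12 log2 after each probe was centred. The nearest elastic fibre probes were Fbn1 probe 1 at 0.34 and Loxl1 at 0.40. All of these profiles share the 8 arrays and their slide pairs, so the likeness is a description of these arrays.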

How the data were processed

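Total RNA of the 8 cultures was amplified into Cy3-labelled RNA and hybridised to Agilent design 014868, per the labels' protocols and the file headers. The deposited files give an intensity per spot on a linear scale from Agilent Feature Extraction 9.5.3.1, per the file headers: the processed signal, already background-subtracted and detrended, the mean signal and the local background. A deposited table of the authors' log2 values served as an alternative. Its columns have a median of 3.01, the same distribution to within 0.00185, and the order of the scanner values (Spearman rho 0.9999 or more); its additive constant is unknown.

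The log2 of the processed signal minus each array's 75th percentile was analysed. Control and outlier spots were left out, 0 spots were saturated, and spots of a probe were averaged. Of 41174 probes, 22951 were named by accession in a RefSeq table of GRCm38.p6 and 6659 by a current symbol. Members were matched by the name in the files. Probes above background on at least 4 arrays were fitted with limma 3.58.1 in R 4.3.3 (lmFit, eBayes, two-sided, adjusted over all probes, threshold 0.05) on the groups alone. Because same-numbered arrays share a slide and correlate, as given with the arrays, the numbers were taken to pair them, and the fit with the replicate block stands beside it. The median residual SD was 0.449 without the block and 0.190 with it. Fits were tested on simulated data. The members and gene lists were chosen with earlier results of these data known. Named genes were all members, and from each list any that passed, failing which the 2 of lowest blocked p, unless said otherwise. Likeness to Eln was measured on 1 probe per gene, leaving out provisional symbols. Of the members, 6 had an upstream sequence in the RefSeq table. Alternatives changed background correction, scaling, filter, outliers, probe choice, variance model, values and replicates. The normexp alternative used the mean signal and local background with an offset of 50, followed by quantile normalization.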

Additional observations from a re-analysis of the deposited data

How the results depend on the processing

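The 10 elastic fibre probes had 0 past the threshold under every setting run: the replicate block, a random block, normexp background correction, quantile normalization, other filters on dim probes, the authors' deposited table and each array or pair left out among them. The filter on all 8 arrays left out Efemp1 and Lox, and the choice of 1 probe a gene left out Fbln1 probe 2. Their median difference stayed between 0.05 and 0.07 over the other settings, between -0.06 and 0.11 with an array left out and between -0.01 and 0.11 with the replicate block and a pair left out. Over all probes 0 passed with the groups alone, 2 with the replicate block, 8 with the replicate as a random block, 3 with normexp and the replicate block, 2 with the authors' table and the replicate block, and 0 to 0 with an array or a pair left out. The pairing by replicate number changed no other call. Efemp2, at -0.04, turned to 0.01 with normexp, 0.01 with normexp and the replicate block, and 0.00 with quantile normalization; the cause was not tested.

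Leaving out single arrays, which leaves a replicate number without its pair, turned the sign of 9 of the 10 differences. The cause of these sign changes was not tested. The ranges were -0.43 to 0.02 for Eln, 0.02 to 0.28 for Fbn1 probe 1, -0.07 to 0.21 and -0.05 to 0.33 for Fbln1 probes 1 and 2, -0.72 to 0.80 for Fbln2, -0.37 to 0.05 for Fbln5 probe 1, -1.60 to 0.71 for Efemp1, -0.19 to 0.08 for Efemp2, -0.36 to 0.76 for Lox and -0.21 to 0.47 for Loxl1. With the block and a pair left out, 3 of 10 turned sign, in ranges of -0.03 to 0.15 for Fbln1 probe 1, -0.09 to 0.01 for Efemp2 and -0.05 to 0.25 for Loxl1. The median share of variation between replicate numbers was 93.9% to 96.3% over settings and 91.2% to 95.8% with a number left out. The F test over numbers held 9 to 10 of the 10 probes over settings (9984 to 13002 of all probes) and 6 to 10 with a number left out (8197 to 11958). Signals near background limit Efemp1 in replicate 2 and Lox in replicate 3.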
